A study of Mus musculus with 6 samples.

Results

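The Rbms family comprises 3 measured genes in mouse, Rbms1, Rbms2 and Rbms3, and was followed here across 6 lines of mpkCCD cells. All probe sets that the platform annotation assigns to exactly 1 of these genes were taken, which gave 8 of the 45037 probe sets that are not controls, 2 for Rbms1, 2 for Rbms2 and 4 for Rbms3. The 3 genes stand among 18193 named on the array, and no probe set shared between several genes named one of them. Rbms3 drew attention because its signal was almost gone in clone 2, so its values in that line chose it and are described without a test. Rbms1 and Rbms2 came in by family name, and the question put to them was whether they change where the Rbms3 signal is almost gone.

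The mpkCCD cells are a mouse cell line of the cortical collecting duct, whose principal cells carry the vasopressin-regulated water channel aquaporin 2 (gene Aqp2). One Affymetrix array was hybridised per line, for the original cells and for clones 2, 3, 9, 10 and 11 obtained from them. Every line had been kept with dDAVP, a vasopressin analog, at 0.1 nM for 5 days, so no line without the hormone analog was compared. By the labels, clone 2 does not express aquaporin 2, and the 5 other lines do and form the expressing group. The group without expression is thus a single clone, and its label cannot be told apart from any other trait of that clone. With 1 array per line, p-values measured only the spread between lines, in which culture and array differences are included, and clone 2 was assumed to vary like the others.

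Rbms proteins bind single-stranded DNA and RNA through a pair of RNA recognition motifs. Rbms1, also called MSSP, was first described as a protein that binds a sequence upstream of the Myc gene, and Rbms3 as one that binds an upstream element of a type I collagen gene. The family is best known for binding AU-rich stretches of messenger RNA in the cytoplasm and for acting on the stability and translation of those messages. Rbms3 is usually described in connective tissue and in developing mesenchyme, while Rbms1 and Rbms2 are broadly expressed.

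The start regions of the genes are shown first, so that the gene with a very low signal in clone 2 can be set beside its relatives. Each window runs from 250 bases before to 50 bases after an annotated RefSeq start, in build GRCm38.p6, 5′ to 3′ on the gene's own strand, and capitals mark every CG dinucleotide. Both annotated starts of Rbms3 on chromosome 9 are given, at chr9:117629864-117630163 and chr9:117252434-117252733, then for each relative the window with the larger CG count, at chr2:60881389-60881688 for Rbms1 and chr10:128176519-128176818 for Rbms2. All lie on the minus strand.
Rbms3, first start: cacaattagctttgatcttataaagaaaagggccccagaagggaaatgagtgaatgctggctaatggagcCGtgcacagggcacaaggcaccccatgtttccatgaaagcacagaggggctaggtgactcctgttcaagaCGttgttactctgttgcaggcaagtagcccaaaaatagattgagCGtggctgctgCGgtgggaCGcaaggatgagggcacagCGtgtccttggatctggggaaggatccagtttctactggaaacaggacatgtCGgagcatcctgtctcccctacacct
Rbms3, second start: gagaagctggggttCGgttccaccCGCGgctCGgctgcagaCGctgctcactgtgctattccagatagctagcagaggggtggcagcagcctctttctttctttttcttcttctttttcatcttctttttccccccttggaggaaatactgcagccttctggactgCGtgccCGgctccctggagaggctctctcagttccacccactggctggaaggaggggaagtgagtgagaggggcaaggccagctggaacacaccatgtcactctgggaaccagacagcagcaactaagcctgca
Rbms1: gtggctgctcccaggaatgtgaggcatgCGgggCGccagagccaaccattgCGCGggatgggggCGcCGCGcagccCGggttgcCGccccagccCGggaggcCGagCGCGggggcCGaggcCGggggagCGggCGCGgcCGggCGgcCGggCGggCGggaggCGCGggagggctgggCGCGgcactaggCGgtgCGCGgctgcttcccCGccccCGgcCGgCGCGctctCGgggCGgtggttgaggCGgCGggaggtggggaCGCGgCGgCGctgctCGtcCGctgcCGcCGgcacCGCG
Rbms2: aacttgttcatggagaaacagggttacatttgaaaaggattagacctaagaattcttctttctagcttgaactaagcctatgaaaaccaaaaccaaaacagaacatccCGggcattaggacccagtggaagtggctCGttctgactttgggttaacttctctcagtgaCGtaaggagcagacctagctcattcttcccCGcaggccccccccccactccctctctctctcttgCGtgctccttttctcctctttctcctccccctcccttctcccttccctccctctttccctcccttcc

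Each Rbms3 window held 7 CG dinucleotides, equal to the median of 7 over 32851 promoter windows in the same table. The Rbms1 window held 49, and 99% of all windows held fewer, while the other Rbms1 start held 26. The Rbms2 windows held 5 and 2. The GC content was 52% and 56.7% in the Rbms3 windows, 82.7% and 68.3% for Rbms1 and 50% and 41% for Rbms2, in the same order of windows. A search on both strands for the cAMP response element TGACGTCA, its part TGACG (which overlaps it), the GATA motif AGATAA and the AP-1 motif TGACTCA found 1 match in the 6 windows of the family. This was TGACG in the Rbms2 window printed here, and 20.8% of all windows hold that motif. The shares of windows with a match were 1.79% for TGACGTCA, 11.2% for AGATAA and 5.2% for TGACTCA. Only these exact letters were searched, so other forms of the motifs were not counted. The arrays do not tell which start was used.

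Rbms3 had a very low signal in clone 2 and was graded among the other lines. The probe set with the highest mean signal for the gene, 1436938_at, gave 26.31 signal units for clone 2. Clone 3 had 796.8, clone 9 853.3, clone 10 1558, the original cells 2918 and clone 11 3231. The clone 2 signal as deposited was 1.41% of the mean of the expressing lines (1871 ± 1144, SD, n = 5), and it was not shown to lie above background. The other probe sets showed the same gap. Probe set 1452762_at had 22.95 in clone 2 and 285, 330.5, 474.7, 778.4 and 1032 in clones 3, 9 and 10, the original cells and clone 11. Probe set 1452761_a_at, whose suffix marks probes shared by several transcripts of a gene, had 68.16 in clone 2 and 436, 400.4, 657.4, 1236 and 1562 in the same order of lines. Probe set 1436937_at had 26.96 in clone 2 and 170.9, 195.7, 436.6, 568.7 and 569. In all 4 probe sets clone 2 lay below every expressing line. The gene was chosen for its low value there, and 29.3% of the 22518 probe sets past the filter on low signal had the same position. The 4 probe sets are not independent of each other. The platform annotation lists 1436937_at and 1436938_at under one sequence record and 1452761_a_at and 1452762_at under another.

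**Figure D1:**
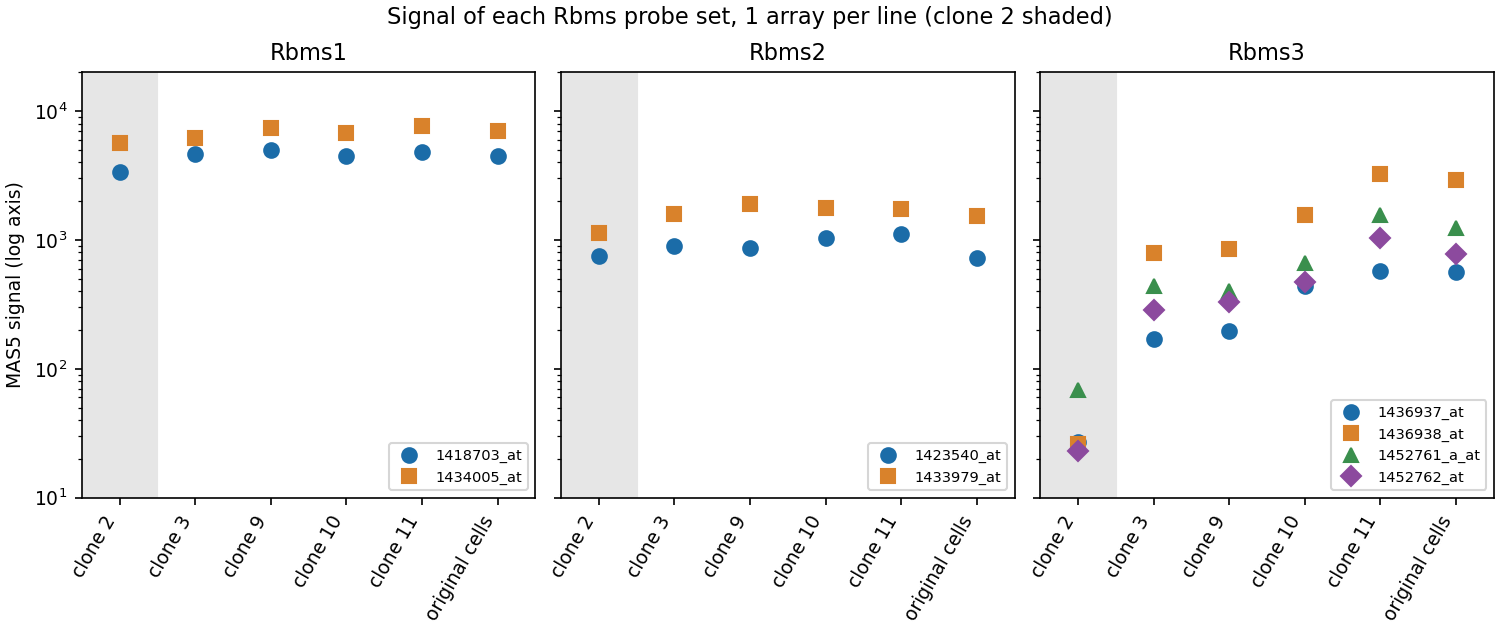
MAS5 signal (log axis) of each of the 8 probe sets of Rbms1, Rbms2 and Rbms3 in the 6 lines, 1 array per line, with clone 2 shaded. The 4 Rbms3 probe sets lay between 22.95 and 68.16 in clone 2 and at 170.9 or more in every other line, while Rbms1 and Rbms2 stayed within a narrow band.

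The log2 difference of clone 2 from the expressing lines was -5.15 for 1436938_at, -3.68 for 1452762_at, -3.13 for 1452761_a_at and -2.99 for 1436937_at. These sizes chose the gene and are given as a description. The signals of clone 2 were close to the offset of 18.81 added before the logarithm, except for 1452761_a_at (68.16). The offset made the differences smaller, and they became -5.91, -4.49, -3.44 and -3.67 with no offset. Those larger values rest on clone 2 signals that were not shown to lie above background. No detection call was used, so a signal this low does not establish that the transcript was absent. On bulk arrays, fewer cells with the transcript and less transcript per cell cannot be told apart.

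Among the expressing lines alone, whose mean but not whose order entered the choice of Rbms3, its level spanned about the same range in every probe set. The highest line exceeded the lowest by 4.05 times in 1436938_at, 3.9 times in 1452761_a_at, 3.62 times in 1452762_at and 3.33 times in 1436937_at. Clone 11 was highest and the original cells next in all 4, clone 10 came after these, and clones 3 and 9 were lowest. Only the order of clones 3 and 9 changed, in 1452761_a_at. Relative to the original cells, 1436938_at stood at 27.3% in clone 3, 29.2% in clone 9, 53.4% in clone 10 and 111% in clone 11. Each line had a single array, so neighbours in this order cannot be set against a spread of their own. The SD of the log2 values over the 5 lines was 0.765 to 0.939 for the Rbms3 probe sets, against a median of 0.204 over the 22518 probe sets past the filter on low signal. For each Rbms3 probe set, at least 98% of those had a smaller SD, without matching for signal level.

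Rbms1 was somewhat lower in clone 2, but neither of its probe sets passed the test. Probe set 1434005_at was lowest in clone 2 (5603), followed by clone 3 (6148), clone 10 (6748), the original cells (6956), clone 9 (7449) and clone 11 (7714). Probe set 1418703_at was also lowest in clone 2 (3337), then came the original cells (4456), clone 10 (4501), clone 3 (4625), clone 11 (4854) and clone 9 (5027). Clone 2 was thus below all 5 expressing lines in both, a position that 29.3% of all tested probe sets also had. The log2 difference was -0.32 for 1434005_at (SE 0.14, limma adjusted p = 0.25) and -0.49 for 1418703_at (SE 0.125, limma adjusted p = 0.0758). As a level, clone 2 was at 80.3% of the expressing lines with the first (95% interval from 64.5% up to the level of those lines) and at 71.3% with the second (58.7% to 86.7%), intervals that are not adjusted for the number of probe sets.

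Rbms2 gave differing answers with its 2 probe sets. Probe set 1433979_at put clone 2 (1136) below every other line, with the original cells at 1526, clone 3 at 1591, clone 11 at 1745, clone 10 at 1774 and clone 9 at 1915. In 1423540_at the lowest line was the original cells, at 717.9, and clone 2 came next at 744.9, before clone 9 (867.8), clone 3 (891.4), clone 10 (1042) and clone 11 (1106). The log2 difference was -0.58 for 1433979_at (SE 0.164, limma adjusted p = 0.0993) and -0.29 for 1423540_at (SE 0.229, limma adjusted p = 0.514). Clone 2 was at 67% of the expressing lines with the first (95% interval 51.8% to 86.6%) and at 81.8% with the second (57.1% to 117%).

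None of the 4 probe sets of Rbms1 and Rbms2 therefore passed an adjusted p under 0.05 in limma, where 2.49% of all 22518 probe sets did, 1.67% as lower in clone 2 and 0.817% as higher. At an unadjusted p under 0.05, 3 of the 4 were lower, against 12.2% of all probe sets. The 4 differences were negative in each of 13 other settings, and the count past the adjusted threshold was 0 in every one. A rise of either relative was not seen: the highest upper bound, for 1423540_at, was 117% of the expressing level. The lowest bound of the 4 intervals was 51.8%. The upper bound for Rbms1 1434005_at was at the expressing level, so this probe set was only narrowly under the unadjusted threshold. It was not under it in every other setting. Probe sets of the same gene were measured on the same arrays and are not independent. A p that misses the threshold does not show that Rbms1 and Rbms2 were equal in clone 2 and in the other lines.

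**Figure D2:**
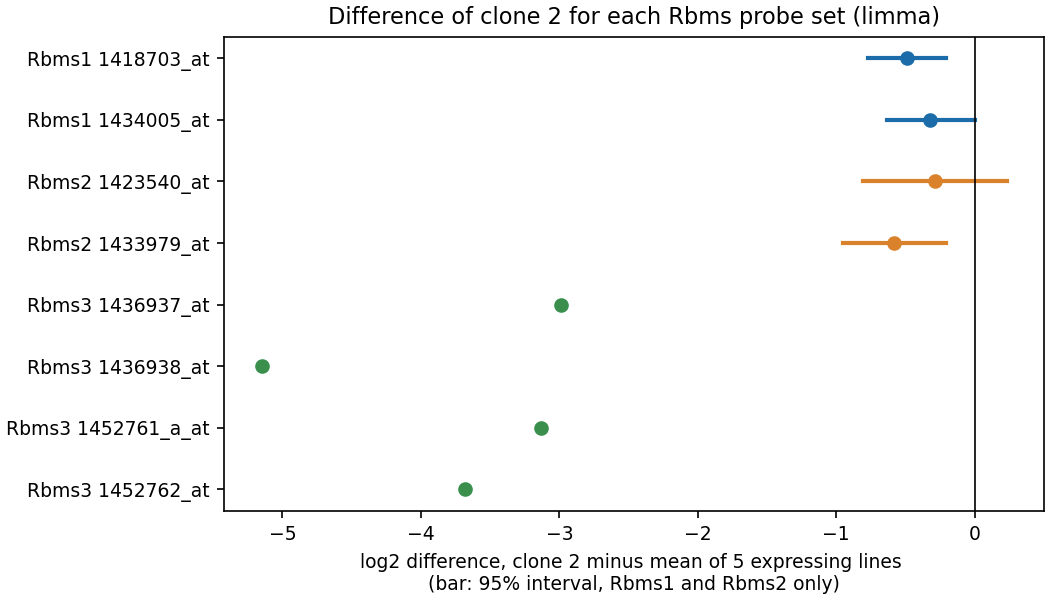
Log2 difference of clone 2 from the mean of the 5 expressing lines for the 8 probe sets (points), with limma 95% intervals (bars) for Rbms1 and Rbms2 only, since Rbms3 was chosen on this contrast. The relatives lay between -0.29 and -0.58 and the Rbms3 probe sets between -2.99 and -5.15.

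Where Rbms3 was graded among the expressing lines, its relatives moved little. Over the same 5 lines the highest Rbms1 signal exceeded the lowest by 1.25 times in 1434005_at and 1.13 times in 1418703_at. For Rbms2 the ratio was 1.26 in 1433979_at and 1.54 in 1423540_at. The SD of the log2 values was 0.0737 and 0.128 for Rbms1 and 0.129 and 0.24 for Rbms2. Of these, 3 of the 4 lay below the median of 0.204 over all probe sets past the filter, which were not matched for signal level. The 2 Rbms1 probe sets put 6 of 10 pairs of expressing lines in the same order, as did the 2 of Rbms2, whereas the Rbms3 probe sets had 9 or 10 of 10 pairs in common. Among lines this alike, the order in Rbms1 and Rbms2 thus depended on the probe set.

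The study asked which transcripts follow Aqp2 among the lines. Its own signal rose from clone 2 (159.3) over clone 10 (1066), clone 3 (1698), the original cells (3822) and clone 9 (4683) to clone 11 (6578). Rbms3 shared the lowest and the highest line with Aqp2 but not the order between them: clone 9 was second highest in Aqp2 and among the lowest 2 expressing lines in Rbms3, and clone 10 was lowest of the expressing lines in Aqp2 and in the middle for Rbms3. A slope on the log2 value of Aqp2 was fitted over the 5 expressing lines, without clone 2. The log2 level of 1436938_at changed by 0.37 per log2 unit of Aqp2 (SE 0.278, 95% interval -0.26 to 1.01, limma adjusted p = 0.654). For the other Rbms3 probe sets the slope was 0.38, 0.38 and 0.18, with limma adjusted p between 0.558 and 0.836.

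For Rbms1 the slope was 0.1 in 1434005_at (95% interval -0.01 to 0.2, limma adjusted p = 0.489) and 0.04 in 1418703_at, and for Rbms2 it was 0.02 and -0.02. None of the 8 probe sets passed in limma, and none had an unadjusted p under 0.05, a level that 11.5% of all tested probe sets reached. Only 0.0133% of 22517 probe sets, or 3, passed the adjusted threshold in this fit, which had 3 residual degrees of freedom. The Rbms3 slopes moved with the lines included. Without clone 9 they lay between 0.36 and 0.61 (limma adjusted p from 0.145 to 0.513). The unadjusted limma p was then 0.00191 for 1452761_a_at, 0.00522 for 1452762_at, 0.0093 for 1436938_at and 0.116 for 1436937_at. None passed the adjusted threshold, and clone 9 is a line that Aqp2 and Rbms3 placed differently. For fits with a line left out, the share of all probe sets at such unadjusted values was not counted. Without clone 10 the slopes lay between 0.69 and 0.82, with an unadjusted limma p of 0.0417 for 1452762_at and 0.0737 to 0.0999 for the others. Without clone 11 they lay between -0.06 and 0.11. Without clone 3 the slope of 1436937_at was -0.02, and without the original cells the 4 slopes were positive, as they were in full.

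**Figure D3:**
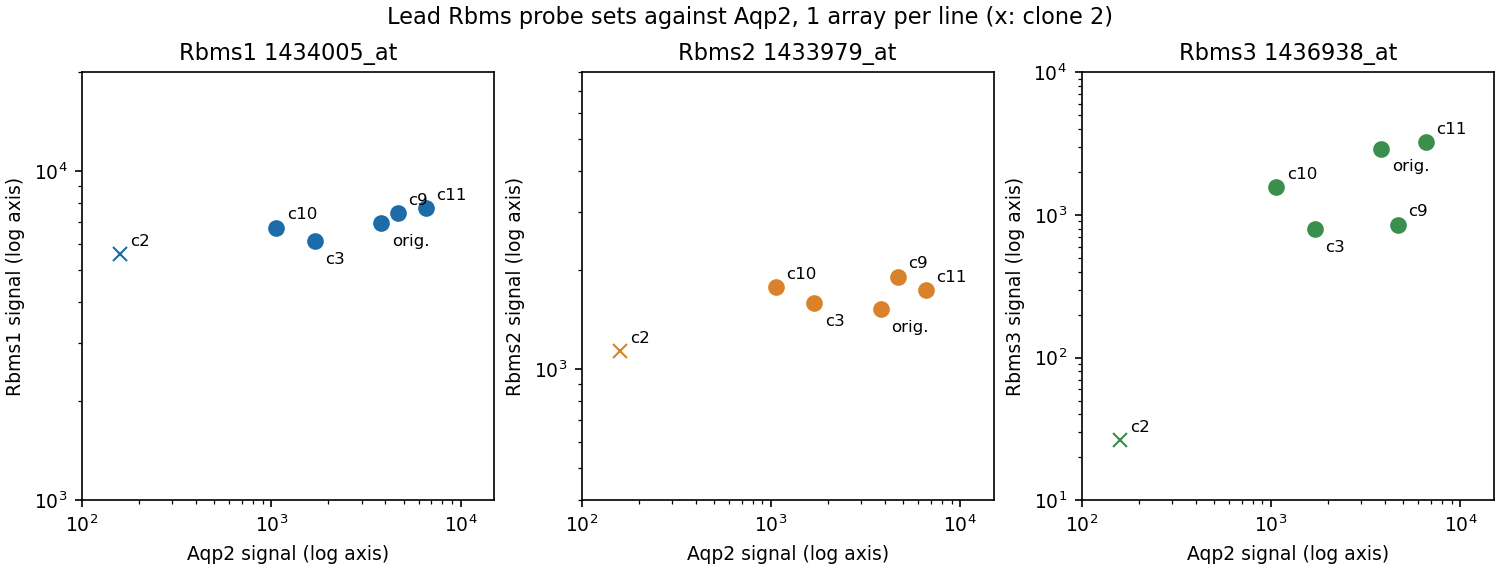
Signal of the probe set with the highest mean for each Rbms gene against the Aqp2 signal, both on log axes, 1 point per line (c2 to c11 are the clones, orig. the original cells, the cross is clone 2). Rbms3 in clone 9 (853.3) lay well below clone 11 (3231) although both had high Aqp2, and Rbms1 and Rbms2 were nearly level among the expressing lines.

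The 3 genes lie on different chromosomes, and none of the tested genes around Rbms3 was called in clone 2. Of the 5 protein-coding genes on each side of Rbms3 in the RefSeq gene table, 8 had a probe set named here, 6 passed the filter and none was called, against 1.86% of all 10342 genes that were called as lower and 1.29% as higher (limma, 1 probe set per gene). At an unadjusted p under 0.05, 1 of the 6 was lower, Stt3b, a subunit of the oligosaccharyltransferase, with 6479 in clone 2 against 9754 ± 1020 (SD, n = 5; log2 difference -0.58, limma adjusted p = 0.076). Tgfbr2, the type II receptor of transforming growth factor beta and the nearest gene on one side, had 3429 against 5163 ± 1172 (-0.56, limma adjusted p = 0.276). On the other side Azi2, an adaptor of innate immune signalling, had 1171 against 1446 ± 288, and Cmc1, a protein of cytochrome oxidase assembly, 1322 against 1081 ± 96.7. Farther out, Osbpl10, an oxysterol-binding protein, had 198.4 against 214 ± 74.8, and the T-box factor Eomes 382.7 against 412 ± 132. Other probe sets of Stt3b, Azi2 and Eomes had differences of the opposite sign (0.08, 0.24 and 0.34), none of them called.

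Around Rbms1, 6 of 10 neighbours were tested, around Rbms2 7 of 10, and none of either passed the limma test. At an unadjusted p under 0.05 there were 0 of the 6 and 3 of the 7, beside 20% of all probe sets in either direction. Their median log2 differences were -0.25 around Rbms1, which itself had -0.32 and -0.49, and -0.22 around Rbms2, which had -0.29 and -0.58. The median over 513 genes of chromosome 10, which carries Rbms2, was -0.24, with 21 called as lower and 0 as higher in clone 2. It was -0.13 over 810 genes of chromosome 2, which carries Rbms1, with 10 lower and 6 higher. Over 574 genes of chromosome 9, which carries Rbms3, it was -0.02, with 13 lower and 0 higher. Over all 10342 genes the median was 0.01, with 192 lower and 133 higher. The part of this chromosome-wide shift in the small differences of Rbms2 was not tested.

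**Figure D4:**
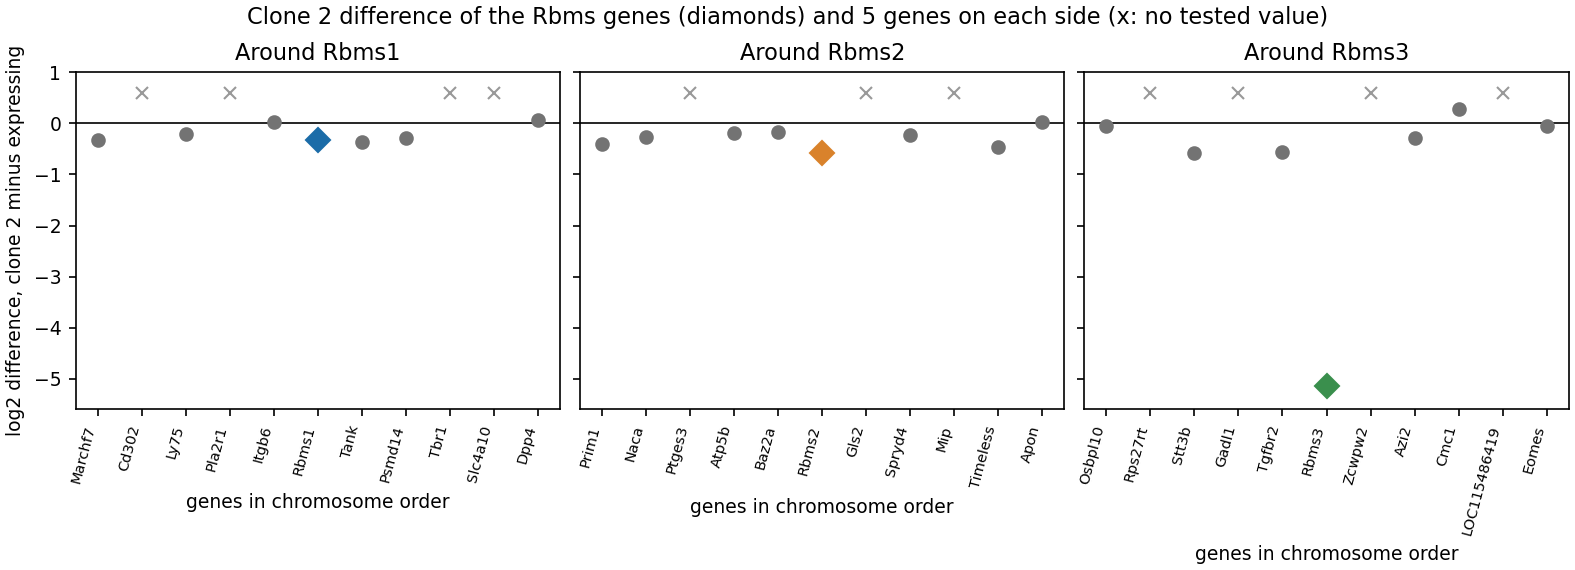
Log2 difference of clone 2 from the expressing lines for each Rbms gene (diamond, probe set with the highest mean) and the 5 protein-coding genes on each side in chromosome order (circles; crosses mark genes without a tested value). The 6 tested neighbours of Rbms3 lay between -0.58 and 0.29, while Rbms3 was at -5.15.

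Of the other RNA-binding proteins tested, 27 of 47 were lower in clone 2 by any amount and 1 was called. Of a list of 61 genes with RNA recognition or related RNA-binding domains, 57 had a probe set and 47 passed the filter. Their median log2 difference was -0.13, beside 0.01 over all 10342 genes with 1 probe set each. The share of all genes that were lower by any amount was not counted. The share of called genes, 1 of 47, was near the background of 1.86% lower and 1.29% higher. At an unadjusted p under 0.05 there were 13, in either direction, against 20% of all probe sets. The one that passed was Hnrnpd, also known as AUF1, which binds AU-rich elements and promotes decay of the messages that carry them. Clone 2 had 3524 signal units and the expressing lines 6856 ± 277 (SD, n = 5), which made the log2 difference -0.96 (SE 0.114, limma adjusted p = 0.00757). The gap between clone 2 and the mean of the expressing lines was far larger than the SD of those lines. Its other tested probe set had a difference of -0.87 and did not pass (limma adjusted p = 0.173). Without clone 9 the RNA-binding protein Qk, named after its values were seen, also passed, which made 2 lower; with all lines its probe set of highest mean differed by -0.59 (limma adjusted p = 0.0903) and another by -1.40 (limma adjusted p = 0.018).

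Genes linked to Rbms proteins in the literature, as bound DNA, bound RNA or partner, were not called in clone 2 by limma. Of 9 such genes 6 passed the filter, 0 were called, beside 1.86% of all genes as lower and 1.29% as higher, and 1 had an unadjusted p under 0.05, near the 20% of all probe sets in either direction. Their median log2 difference was -0.09. Ctnnb1, which encodes beta-catenin, stood at 14759 there against 16431 ± 1088 (SD, n = 5; limma adjusted p = 0.488), and Sdcbp, the adaptor syntenin, had 7854 against 6865 ± 682 (limma adjusted p = 0.491), where a further probe set differed by -0.05. Named after their values were seen, Myc, whose upstream region gave MSSP its name, had 1989 against 2500 ± 251 (log2 difference -0.32, limma adjusted p = 0.305), and Pola1, the catalytic subunit of DNA polymerase alpha, had 2568 against 1673 ± 132 (0.62, limma adjusted p = 0.0731). Pola1 passed when clone 9 was left out (0.65). Prrx1, Twist1 and Slc7a11 lay below the filter in the mean of the 6 lines.

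The genes whose pattern over the 6 arrays was most like that of Rbms3 were Kank4, Vcl, Tprn, Cul7, Rnf8, Micos13, Zmym5 and Mea1, by Pearson's correlation of log2 values with 1436938_at (0.989 to 0.996, n = 6 arrays, 1 probe set per gene). The gap between clone 2 and the next line took up 0.677 of the whole log2 range in 1436938_at and 0.542 to 0.615 in the other Rbms3 probe sets, so clone 2 weighs heavily in this measure. None of these genes had as large a change. Kank4, a member of the Kank family of cytoskeletal adaptors, had 57.4 in clone 2 and 129.2 to 167.8 in the expressing lines. Vcl, which encodes the adhesion protein vinculin, had 7987 in clone 2 and 9239 to 10274 elsewhere. The list depended on the processing: 7 of the 8 were kept with a doubled offset, 6 with quantile normalization, 5 with no offset and 1 with median centring.

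Of these 8 genes, 4 lie on chromosome 17, namely Cul7, Rnf8, Micos13 and Mea1, where 4.9% of all genes past the filter lie. The median log2 difference of clone 2 over the 507 genes of that chromosome was -0.37. Its part in the likeness was not tested. The 5 genes most like Rbms1 were Luc7l, Ndufa13, Wiz, Skiv2l and Gja1 (0.986 to 0.995), of which 3 lie on chromosome 17. Gja1, the gap junction protein connexin 43, was at 9.575 in clone 2, and clone 3 (105), clone 10 (164), the original cells (306.6), clone 9 (683) and clone 11 (830.3) followed. This is the order of 1434005_at, the Rbms1 probe set used to choose it, and not that of 1418703_at. Its range was much wider, although its 4 other tested probe sets had smaller differences in clone 2 (-2.75 to -1.07). The 5 most like Rbms2 were Dctn2, Zfp867, Mrps34, Nfat5 and Gatad2b (0.988 to 0.990), among them Nfat5, the transcription factor of the osmotic response, with 2139 in clone 2 and 3520 to 4627 elsewhere.

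Markers of the cell type and the quality of the arrays were as follows. All 5 epithelial markers and 10 of 12 principal cell markers passed the filter, Aqp4 and Elf5 being the exceptions. The summed signal of the epithelial markers was 78206 in clone 2 and 85768 to 96297 in the expressing lines. Of these 5 markers, 4 were lower in clone 2 by any amount, among them Cdh1 (log2 difference -0.44), and Krt19 was higher (0.42). The summed signal of the principal cell markers, Aqp2 included, was 12466 in clone 2 and 21513 to 28505 in the expressing lines, and its part in the Rbms3 result was not tested. Of the 10 past the filter, 8 were lower in clone 2 by any amount, among them Scnn1b with a log2 difference of only -0.09. Aqp3 (0.64) and Avpr2 (0.12) differed in the other direction. Of the 10, Fxyd4, Gata3 and Aqp2 were called as lower, beside 1.86% of all genes. The low level of Aqp2 defines the group of clone 2, and its own call was lost in 5 of 13 other settings. These were no filter, a robust variance model, no mean-variance trend, and leaving out clone 11 or the original cells. Of 13 fibroblast and mesenchymal genes, the cells in which Rbms3 is usually described, 3 passed the filter and 10 did not, among them Col1a1, Col1a2, Col3a1, Pdgfra, Pdgfrb and Vim. Their summed signal was 4443 in clone 2 and 8162 to 10589 in the expressing lines, none was at 0, and 1 was called, Fn1, the matrix protein fibronectin, with 3138 against 8062 ± 1143 (SD, n = 5; difference -1.34 on the log2 scale, limma adjusted p = 0.0106). Fn1 made up most of this sum in every line. The others past the filter lay within the range of the expressing lines in clone 2. Acta2 had 119.5 against 87.01 to 159.2, and S100a4 had 924.8 against 777.3 to 1403. The part of these genes in the Rbms3 result was not tested. The summed signal of 7 intercalated cell markers was 1403 in clone 2 and 701.1 to 2297 elsewhere, and that of 7 endothelial and leukocyte markers 2611 and 1817 to 3009. Single markers past the filter differed within these sums. Clone 2 was above all expressing lines in Atp6v1b1 (949.3 against 413 to 687.3) and Cd68 (619.3 against 121.6 to 323.1). It was within their range in Rhcg (257.6 against 8.424 to 1526) and Csf1r (1838 against 1641 to 2564). Of 6 proximal tubule markers (291.8 in clone 2, 937.6 to 1242 elsewhere) 1 passed the filter and was lower, Lrp2. The median signal of the arrays ran from 79.6 (clone 2) to 88.6 (clone 10), and the correlation of clone 2 with the other arrays was 0.93 to 0.953, against 0.953 to 0.981 among those.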

How the data were processed

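RNA from 6 mpkCCD lines was measured on 1 Affymetrix array each. The values deposited by the authors are linear signal intensities per probe set. The submitters' processing notes name MAS5 and version 1.1 of Affymetrix Expression Console. After trimming 2% of probe sets at either end, array means were 497.8 to 498.1, so arrays had been scaled alike. The target of this scaling is not given in the sources used here. Since MAS5 corrects for mismatch probes, low values are noisy, and the number of arrays limits the precision.

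Gene symbols came from the platform annotation, updated by gene identifier to RefSeq names of assembly GRCm38.p6 (34741 of 34945 probe sets with 1 gene matched, 932 had several genes and 9160 none). Different probe sets of a gene are all shown for the family, and the one of highest mean signal stands for any other gene. Signals were analysed as log2(signal + 18.81), where 18.81 is the 25th percentile of all values. Probe sets with a mean above 85.46, the median, were kept (22518, all 8 of the family among them). A probe set low in most lines could pass only through its high lines.

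The tests used limma 3.58.1 under R 4.3.3 (mean-variance trend, two-sided, Benjamini-Hochberg over all probe sets, threshold 0.05), in 2 fits: clone 2 against the 5 expressing lines with 4 residual degrees of freedom, and the slope on log2 Aqp2 among the expressing lines with 3. The script was tested on simulated data. Named genes were the family, 5 protein-coding neighbours on each side, the genes of highest correlation (8 for Rbms3, 5 for each relative) and, per list, up to 4 called genes or the 2 of highest mean signal. The family, the lists, the rules and the alternatives were chosen with earlier results of these data known. The motifs were chosen after the values were seen. Promoter sequences are from RefSeq, with all 3 genes matched.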

Additional observations from a re-analysis of the deposited data

How the results depend on the processing

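Alternatives changed the offset (0, or doubled), the filter (none, or the 75th percentile), the scaling (median centring, or quantile normalization) and the variance model (robust, or no trend), or left out each expressing line in turn. The clone 2 count for Rbms1 and Rbms2 and the slope count for the family were 0 in all 13 settings (limma). Without 1 expressing line the Rbms1 and Rbms2 differences ranged from -0.62 to -0.22. The stricter filter removed Rbms3 probe sets 1436937_at and 1452762_at.

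Some values changed sign. The slope of Rbms2 1423540_at became 0.11 without clone 10 and 0.01 without the original cells, and that of 1433979_at became -0.0028 without clone 3 and -0.01 without clone 9. The slope of Rbms3 1436937_at, 0.18 in full, became -0.02 without clone 3 and -0.06 without clone 11. The difference of Osbpl10 became 0.01 with quantile normalization, 0.05 with median centring and 0.12 without clone 9. That of Eomes became 0.04 with median centring, 0.1 without clone 9 and 0.01 without clone 10. The cause was not tested. No paired analysis was possible because replicate numbers are names given in accession order and 1 group has a single array.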
